A study of Apis mellifera with 25 samples.

Results

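Cross 875 comprised 6 adult honey bee workers (Apis mellifera) of the 25 in the study, 3 whose ovaries had become active and 3 whose ovaries had stayed inactive. They were chosen by their library titles, which begin with 875. The number is read here as a cross, although the labels do not say what it marks. All 25 workers descended from reciprocal crosses between Africanized and European bees. They lived in colonies without a queen for about 18 days, were older than 18 days as adults and were sorted by dissection. The labels do not give the direction of cross 875, and they name no treatment and no strain beyond these lineages. Each library held polyadenylated RNA of 1 bee, from an abdomen without its gut and with fat body and ovaries attached. Bees are called by status and number, in the deposited order, so that equal numbers do not pair an active with an inactive bee. The other crosses were 882 (3 active and 4 inactive bees), 888 and 894 (3 and 3 each).

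A honey bee worker normally leaves reproduction to the queen. When the queen is lost, some workers activate their ovaries, in which eggs mature and take up yolk protein made by the fat body, the insect tissue that combines roles of liver and adipose tissue. Ovary activation is graded, and sorting by dissection divides it into classes. The yolk precursor vitellogenin is an abundant protein of the fat body and is also made by workers that do not lay.

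The labelled cross was checked against the parental reads. At positions where 2 libraries each had at least 10 parental reads, the share assigned to the parent called D correlated across positions with r between 0.587 and 0.745 in the 15 pairs of cross 875 bees. In the 114 pairs of a cross 875 bee with a bee of another prefix, r lay between 0.0803 and 0.402, so the 2 ranges did not overlap. Loss of D reads while other bees of the cross were balanced was seen in 0 to 4 genes in each cross 875 bee. It was seen in 17 to 36 genes in 3 inactive bees of other crosses (bee 3 of 882 and bees 1 and 2 of 888), which are called the bees that stood apart. Loss of reads of the other parent, Q, was seen in 16 to 38 genes in cross 875 bees, with the highest count of all 25 in inactive bee 3. It was seen in 23 to 33 genes in the 3 bees that stood apart and in 6 to 29 in the remaining bees. EdgeR calls within 882 and 888, for the difference from the mean of the other crosses and between inactive bees are also given without them. DESeq2 calls and the tests against 882 or 888 alone are given with all bees only.

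Total gene counts of the 6 bees ran from 17.9 M to 27.6 M (M, 1e6 counts), and between 14752 and 14947 of the 15314 identifiers had a count. The 10 most abundant genes took 14.2%, 18.2% and 18.0% of counts in active bees 1, 2 and 3, and 22.3%, 12.2% and 8.18% in inactive bees 1, 2 and 3. The value of inactive bee 3 was the lowest of all 25 libraries. The identifiers of the table could not be paired with gene names, because 0 of the 15314 matched the reference gene table of the assembly Amel_HAv3.1 used here. Genes are therefore given by identifier, no more than 2 per direction in any comparison, and the tissue could not be checked against named marker genes. The exception is GB49544, taken here as vitellogenin from the description supplied with the series and not from the deposited files. Scaffold positions are those of sites with parental reads that the deposited tables assign to a gene, and their genome build is not stated.

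The first comparison asked which genes differed with ovary status within cross 875. No gene passed: of 13368 tested, edgeR's quasi-likelihood test called 0 higher in active bees and 0 lower at a Benjamini-Hochberg adjusted p under 0.05, which is 0% called. The smallest adjusted p in edgeR was 0.99998. An unadjusted p under 0.05 was found for 280 genes, or 2.09%. Limma-voom also called 0 genes (232 at an unadjusted p under 0.05), whereas DESeq2 called 4 higher and 0 lower (346 at an unadjusted p under 0.05). The same contrast in a fit of all 25 libraries, which shares the spread of all crosses, called 0 genes with 720 at an unadjusted p under 0.05. The same edgeR test called 901 genes (7.02%) within 882, of which 663 (5.17%) were higher and 238 (1.86%) lower in active bees. Within 888 it called 2558 (19.3%), of which 1216 (9.17%) were higher and 1342 (10.1%) lower, and within 894 it called 0 (0%). Without the 3 bees that stood apart, the calls were 538 higher and 310 lower in 882 and 1755 higher and 1914 lower in 888, which then had 1 inactive bee. With all bees, an unadjusted p under 0.05 was found for 3090 genes (24.1%) in 882, 5051 (38.1%) in 888 and 237 (1.79%) in 894.

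Few genes separated the bees completely. All 3 active bees lay above all 3 inactive bees in 374 genes (2.8% of those tested) and below them in 275 genes (2.06%). Bees can be divided into 3 and 3 in only 20 ways, so such separation also occurs by chance. These shares on their own therefore show no effect of ovary status. The clearest of these are described here by the rule of smallest unadjusted p at an average log2 level of at least 4, and none passed the adjusted threshold. Their lack of overlap was set by this choice. Levels are CPM, counts per 1e6 counts with TMM-scaled library sizes, TMM being a scaling of libraries by their typical gene.

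GB50891 stood at 62.0, 36.8 and 32.7 CPM in active bees 1, 2 and 3 and at 10.7, 9.71 and 15.4 CPM in inactive bees 1, 2 and 3. The lowest active bee had more than the highest inactive bee by a wide margin. Its mean was 43.8 ± 15.9 CPM (SD, n = 3) against 11.9 ± 3.05 CPM (SD, n = 3), a log2 change of 1.84 (SE 0.44, edgeR unadjusted p = 0.000996, adjusted p = 0.99998). The same gene had a log2 change of -1.65 within 882, 0.38 within 888 and 1.12 within 894.

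GB49892, with a position at 43517 on scaffold Group13.12, stood at 35.4, 70.4 and 53.5 CPM in active bees 1, 2 and 3. In inactive bees 1, 2 and 3 it had 17.9, 22.03 and 13.7 CPM, again without overlap. The log2 change was 1.54 (SE 0.43, edgeR unadjusted p = 0.00317, adjusted p = 0.99998). Here the other crosses had the same sign, with log2 changes of 4.09 within 882, 2.67 within 888 and 0.95 within 894. Their inactive bees reached from 0.433 to 27.0 CPM with a median of 4.17 CPM, so that each inactive bee of cross 875 was above that median.

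On the lower side, GB42199 stood at 7.46, 11.6 and 5.03 CPM in active bees 1, 2 and 3 and at 29.6, 13.3 and 36.6 CPM in inactive bees 1, 2 and 3. Inactive bee 2 lay close to active bee 2, and the other inactive bees lay well above. The log2 change was -1.76 (SE 0.49, edgeR unadjusted p = 0.00328, adjusted p = 0.99998). GB53119, with a position at 132890 on scaffold Group4.5, stood at 48.0, 132 and 106 CPM in active bees 1, 2 and 3 and at 302, 725 and 172 CPM in inactive bees 1, 2 and 3. Its groups did not overlap, but inactive bees differed by a factor of 4.22 among themselves. The log2 change of GB53119 was -2.09 (SE 0.67, edgeR unadjusted p = 0.00793, adjusted p = 0.99998), and -1.34 without inactive bee 2. Within 882, 888 and 894 the log2 changes were -1.27, -1.17 and -0.05 for GB42199 and -2.26, -6.05 and -0.34 for GB53119.

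**Figure D1:**
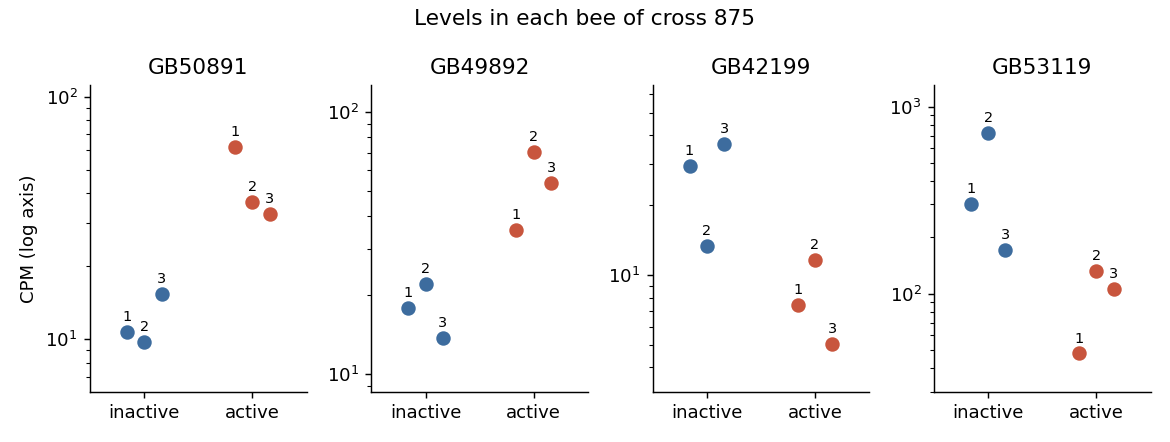
CPM (log axis, each panel with its own range) of 4 genes in the 6 bees of cross 875, with inactive bees in blue, active bees in red and the bee number beside each point. The genes were chosen among those whose 3 active bees lie on one side of the 3 inactive bees, so the separation in every panel was set by the choice. None of the 4 genes reached the adjusted threshold (edgeR adjusted p = 0.99998 each).

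The genes called in other settings were high in active bees 1 and 2. They are named after their values were seen. Without active bee 3, edgeR called 6 genes higher and 0 lower, and 3 of these 6 were also among the 4 calls of DESeq2. GB46587, called in both settings, stood at 20.4 and 41.0 CPM in active bees 1 and 2 and at 1.79 CPM in active bee 3. Inactive bees 1, 2 and 3 had 0.185, 0.469 and 0.993 CPM. Active bee 3 was thus above the inactive bees but far nearer to them than to the other active bees. The log2 change of GB46587 was 5.12 with all 6 bees (edgeR adjusted p = 0.99998), 5.17 in DESeq2 (adjusted p = 4.11e-06) and 5.71 without active bee 3 (edgeR adjusted p = 0.00268). GB55450, called by DESeq2 only, was more even, with 23.2, 13.5 and 19.8 CPM in active bees 1, 2 and 3 against 4.13, 0.542 and 1.66 CPM in inactive bees 1, 2 and 3. Its log2 change was 3.17 in DESeq2 (adjusted p = 0.00286) and 3.16 in edgeR (unadjusted p = 0.000338, adjusted p = 0.99998). No bee other than active bee 3 changed the count of 0 calls when left out.

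Both the size of the difference and the spread among bees were recorded for each cross. The distance between 2 bees is the root-mean-square difference in log2 CPM over 13991 genes. In cross 875 the mean profiles of active and inactive bees were 0.491 apart. This distance was 0.368 in 894, 0.88 in 882 and 1.05 in 888. The biological coefficient of variation, edgeR's common estimate of the relative spread between bees of a group, was 47.6% in cross 875, the highest of the 4 crosses (36.7% in 882, 38.3% in 888 and 31.0% in 894). A fitted change of at least 2-fold was found for 635 genes (4.75%) in cross 875, against 4476 (33.8%) in 888, 2152 (16.8%) in 882 and 294 (2.21%) in 894.

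Distances within a status overlapped those between statuses in cross 875. They ran from 0.912 to 1.25 among active bees, from 0.865 to 1.09 among inactive bees and from 0.706 to 1.22 between an active and an inactive bee, with means of 1.11, 0.969 and 0.977. The closest of the 15 pairs was active bee 3 with inactive bee 2, with 190 genes (1.36%) differing at least 4-fold. The next closest was active bee 3 with inactive bee 3 (distance 0.803, 340 genes). The most distant pair was active bees 1 and 2 (1.25, 1315 genes or 9.4%). In 888 distances ran from 0.588 to 0.734 among active bees, from 1.01 to 1.25 among inactive bees and from 1.17 to 1.46 between statuses, so that the overlap there was with the inactive pairs. In 894 the closest pair was also a mixed pair. Its distances were 0.544 to 0.723 (active), 0.627 to 0.992 (inactive) and 0.515 to 0.987 (between statuses). The ranges also overlapped in 882, with 0.790 to 0.963, 0.652 to 0.985 and 0.938 to 1.30.

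**Figure D2:**
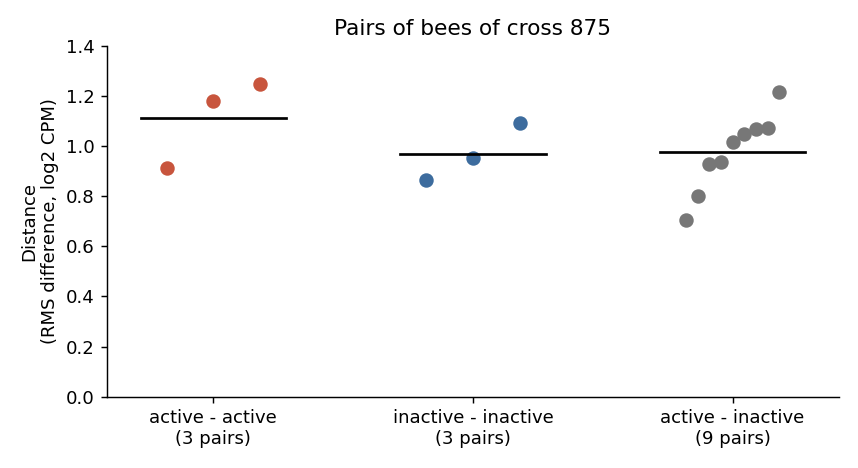
Distance between bees of cross 875 (root-mean-square difference in log2 CPM over 13991 genes, axis from 0) for the 3 pairs of active bees, the 3 pairs of inactive bees and the 9 mixed pairs; each point is a pair and each line a mean. The closest pair (0.706) is a mixed pair, and the means are 1.11, 0.969 and 0.977.

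The spread measured among the inactive bees of cross 875 was smaller than that among its active bees, by a margin that rested on single bees. The mean distance of a bee to the other bees of its status was 0.978, 0.908 and 1.02 for inactive bees 1, 2 and 3, and 1.08, 1.21 and 1.05 for active bees 1, 2 and 3. The difference of means, inactive minus active, was -0.144, and all inactive bees lay below all active bees (exact two-sided permutation test, p = 0.1, the smallest that 3 against 3 allows). Distances share bees, so these 6 values are not independent. Each was taken within its own status and was not recomputed for the other splits. The p-value is therefore only descriptive and is no measure of evidence for a difference in spread. The median over genes of the SD of log2 CPM was 0.49 among inactive and 0.55 among active bees, and 45.9% of genes had the larger SD among inactive bees. Without inactive bee 2 the difference in mean distance was -0.0219. Without active bee 2 the inactive mean distance was 0.057 higher, and without active bee 1 or active bee 2 the inactive median SD was higher by 0.0276 or 0.115. Among other crosses the median SD of inactive bees was 0.42 in 882, 0.56 in 888 and 0.38 in 894, so that cross 875 lay within their range. The median SD of active bees was 0.38, 0.29 and 0.29 in those crosses, below the 0.55 of cross 875.

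Large differences among the inactive bees mostly set bee 1 against bee 3. Of 5842 genes with a mean log2 CPM of at least 4 in the 6 bees, 115 (1.97%) had an 8-fold or larger range among inactive bees, and 343 (5.87%) among active bees. The bee farther from the others was inactive bee 3 in 71 of the 115 genes, inactive bee 1 in 42 and inactive bee 2 in 2. At least 8-fold more in inactive bee 1 than in inactive bee 3 was found for 81 genes, and the reverse for 6. In 75 of those 81 genes active bee 2 also lay above the mean of active bees 1 and 3, as it did in 51.2% of all 5842 genes. Over all 5842 genes these 2 differences were only weakly related (Spearman 0.09, Pearson 0.20, across genes, which are not independent). The genes with an 8-fold range in both statuses numbered 44, which is 38.3% of the inactive list and 12.8% of the active list.

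The most abundant gene, GB49544 (vitellogenin), was among those that varied widely. It stood at 65479, 22005 and 1886 CPM in inactive bees 1, 2 and 3, a 34.7-fold range, and at 9828, 21027 and 3020 CPM in active bees 1, 2 and 3. Inactive bee 1 was highest and inactive bee 3 lowest, with all active bees in between. The log2 change with active ovaries was -1.40 (SE 1.24, edgeR unadjusted p = 0.276, adjusted p = 0.99998). It was -0.09 without inactive bee 1, -0.93 without active bee 3 and -2.21 without active bee 2. All 3 active bees of cross 875 lay below the 9 active bees of the other crosses, which had 30692 to 101453 CPM. The test of that difference between active bees gave a log2 change of -2.38 (SE 0.86, edgeR adjusted p = 0.219).

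GB50121, the other gene named for its abundance, had the same order among inactive bees. Inactive bees 1, 2 and 3 had 28151, 16065 and 1878 CPM, and active bees 1, 2 and 3 had 5783, 33346 and 4973 CPM. The statuses overlapped over most of their range, and the log2 change was -0.07 (SE 1.14, edgeR adjusted p = 0.99998). Since each library held the RNA of several tissues in bulk, fewer cells of a type and less RNA per cell cannot be told apart.

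The largest SD among inactive bees at this abundance was found for GB43689 and GB52832, which were chosen by that SD and carry no test of it. GB43689 (scaffold GroupUn18, positions 10597 to 10807) stood at 483, 270 and 3.70 CPM in inactive bees 1, 2 and 3. Active bee 2 had 749 CPM while active bees 1 and 3 had 18.8 and 1.46 CPM, so low and high bees occurred in both statuses. GB52832 stood at 864, 6.61 and 34.5 CPM in inactive bees 1, 2 and 3 and at 258, 334 and 848 CPM in active bees 1, 2 and 3. Here inactive bee 1 was at the level of the active bees and the other inactive bees were not. Other crosses also held bees at odds with their status. GB52832 had 7.94 to 6341 CPM in active and at most 4.06 CPM in inactive bees of 882, but 974 CPM in 1 inactive bee of 888 and 476 CPM in 1 inactive bee of 894, where 2 active bees had 5.30 and 8.40 CPM. Neither gene was called within cross 875 (log2 changes 0.01 and 0.68, edgeR adjusted p = 0.99998 for both). Single bees set these values: without inactive bee 1 the log2 change of GB52832 was 4.54, and without active bee 2 that of GB43689 was -4.64.

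**Figure D3:**
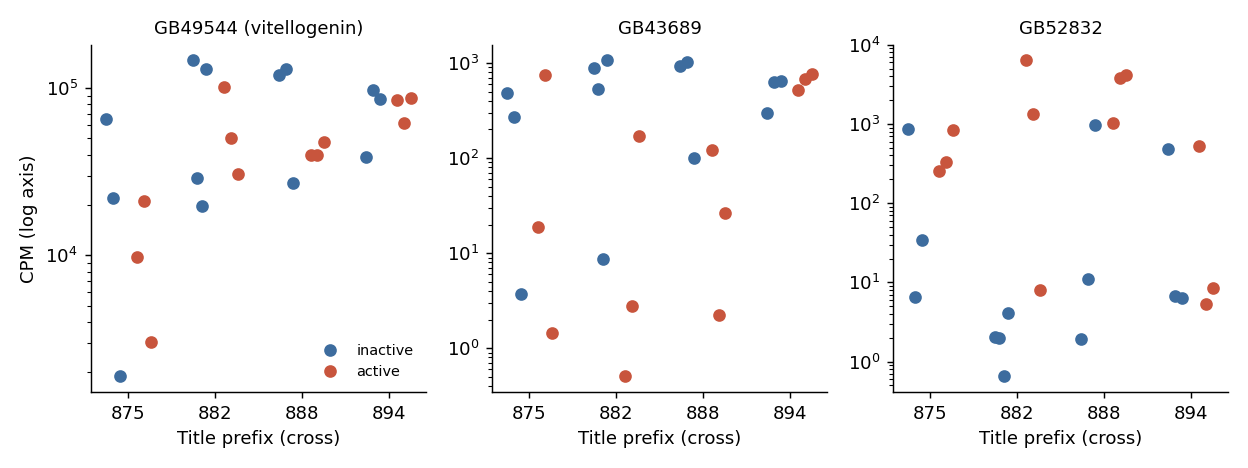
CPM (log axis) of GB49544, GB43689 and GB52832 in all 25 bees by title prefix, with inactive bees in blue and active bees in red. In cross 875 the statuses overlap in each gene, with 1886 to 65479 CPM of GB49544 in inactive and 3020 to 21027 CPM in active bees.

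The second comparison asked whether the genes that respond elsewhere also moved in cross 875. Lists came from 882 and 888 in their own fits, which share no bee with cross 875, and were read in cross 875 without a set test. Higher with active ovaries in both 882 and 888 were 504 genes, of which 501 were tested in cross 875. There their median log2 change was 0.60, against -0.02 over all 13368 genes. A change above 0 was found for 481 of the 501 (96.0%, against 47.8% of all genes), and 20 had one below 0. Of these 501 genes 0 were called, but 79 (15.8%) had an unadjusted p under 0.05, against 2.09% of all genes. All 3 active bees lay above all 3 inactive bees in 96 of the 501 (19.2%), against 2.8% of all genes.

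Lower genes behaved alike at a smaller size. Of the 170 genes lower in both 882 and 888, all 170 were tested in cross 875, and their median log2 change was -0.53. A change below 0 was found for 158 (92.9%, against 52.2% of all genes). An unadjusted p under 0.05 was found for 9 (5.29%), and 15 (8.82%) had all active bees below all inactive bees, against 2.06% of all genes. The median of the lower list was -0.28 without inactive bee 1. With lists made without the 3 bees that stood apart, the medians in cross 875 were 0.70 for the higher and -0.35 for the lower list. The changes were smaller than where the lists were made. The higher list had medians of 1.73 in 882 and 1.90 in 888, and the lower list -1.25 and -1.69, although calls favour large changes in the crosses that made them. In 894, which gave no gene to the lists either, the medians were 0.32 (94.0% above 0) and -0.30 (86.5% below 0).

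Lists of a single cross gave the same signs with smaller medians for 888. Genes higher in 882 had a median of 0.63 in cross 875 (658 tested) and genes lower there -0.52 (237 tested). Genes higher in 888 had 0.34 (1200 tested) and genes lower there -0.22 (1333 tested). The last value did not keep its sign. It was 0.0142 without inactive bee 1, and 0.0092 when the 888 list was made without the 3 bees that stood apart. The median of genes higher in 888 was 0.14 when those 3 bees were left out and 0.61 without inactive bee 3, and that of genes lower in 882 was -0.28 without inactive bee 1. Over all genes, log2 changes in cross 875 had a Spearman correlation of 0.36 with those in 882, 0.29 with 888 and 0.20 with 894, and 882 and 888 correlated at 0.76 (12712 to 13121 genes, across genes, with no bee in common).

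**Figure D4:**
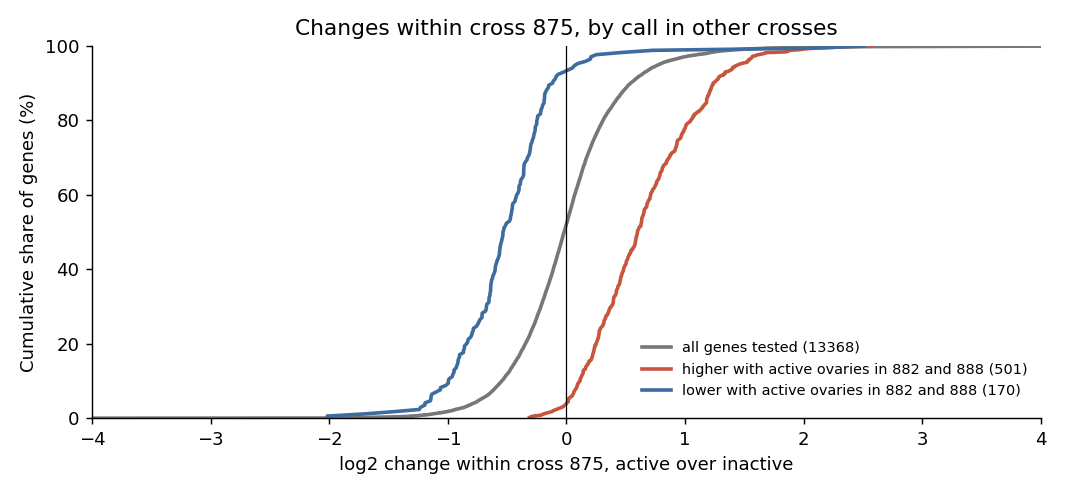
Cumulative share of genes (%) by log2 change within cross 875, active over inactive, for all 13368 genes (grey), for the 501 genes higher in 882 and 888 (red) and for the 170 genes lower there (blue). The red curve lies to the right and the blue curve to the left of the grey one, with medians of 0.60, -0.53 and -0.02.

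Examples from these lists were chosen by the size of their change in 882 and 888. GB54808 stood at 599, 585 and 181 CPM in active bees 1, 2 and 3 of cross 875, levels within those of other active bees (28.3 to 1595 CPM). Its inactive bees 1, 2 and 3 had 332, 61.9 and 120 CPM, beside 9.49 to 14.1 CPM in the 4 inactive bees of 882, 7.18, 84.5 and 279 CPM in those of 888 and 21.7 to 76.2 CPM in those of 894. Inactive bee 1 was above active bee 3, and 2 of the inactive bees of 888 lay within the range of the inactive bees of cross 875. The log2 change within cross 875 was 1.39 (SE 0.72, edgeR adjusted p = 0.99998), against 5.71 in 882 and 3.43 in 888. It was 2.31 without inactive bee 1.

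GB40286 (scaffold Group13.14, positions 16873 to 18034) stayed low in every bee of cross 875. Active bees 1, 2 and 3 had 3.87, 0.624 and 0.794 CPM, and inactive bees 1, 2 and 3 had 0.617, 0.831 and 0.537 CPM. The 9 active bees of the other crosses had 33.7 to 660 CPM, including 34.8 to 111 CPM in 894, which was not used to choose the gene. The log2 change of GB40286 within cross 875 was 1.37 (SE 0.70, edgeR adjusted p = 0.99998) and differed from the mean of the other crosses by -4.14 (SE 1.29, edgeR adjusted p = 0.683). Its level in active bees was called lower than in the other active groups, by a log2 change of -6.53 (SE 1.18, edgeR adjusted p = 0.00901). The choice of the gene by its changes in 882 and 888 favours this call. Active bee 1 set the change within cross 875, which was 0.11 without it.

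Among lower genes, GB42427 stood at 10.4, 36.5 and 22.4 CPM in active bees 1, 2 and 3 and at 12.3, 43.7 and 50.8 CPM in inactive bees 1, 2 and 3. Inactive bee 1 lay with the lowest active bee. In the active bees of 882 and 888 it had 5.05 to 11.3 CPM, so that active bees 2 and 3 of cross 875 were above all of these. GB46403 (scaffold Group1.23, positions 1511787 to 1523154) had 7.96, 32.7 and 8.90 CPM in active bees 1, 2 and 3 and 70.6, 16.3 and 8.32 CPM in inactive bees 1, 2 and 3. The statuses overlapped in both genes, with log2 changes of -0.67 (SE 0.59) and -0.95 (SE 0.79, edgeR adjusted p = 0.99998 for both). Leaving out 1 bee moved the change of GB42427 to between -0.27 (without active bee 1) and -1.13 (without active bee 2). The sign of GB46403 rested on inactive bee 1, without which its log2 change was 0.42.

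Each bee was then placed between the statuses of 882 and 888. For every gene of a list, 0 stands for the mean of the inactive bees of 882 and 888 and 1 for the mean of their active bees, and the bee's position is the median over genes. This measure was added after the list medians had been seen, and it describes cross 875 and 894 only, since the bees of 882 and 888 set its ends. For the higher list, active bees 1, 2 and 3 of cross 875 lay at 0.81, 0.79 and 0.59, and inactive bees 1, 2 and 3 at 0.32, 0.33 and 0.59. Inactive bee 3 and active bee 3 were at the same place, 0.591 each. The means were 0.73 ± 0.12 (SD, n = 3) and 0.42 ± 0.15 (SD, n = 3). In 894 the active bees had a mean of 0.33 ± 0.20 (SD, n = 3), below every active bee of cross 875, and the inactive bees 0.20 ± 0.12 (SD, n = 3).

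The lower list placed the bees in a similar way. Active bees 1, 2 and 3 lay at 0.75, 0.88 and 0.46 and inactive bees 1, 2 and 3 at 0.08, 0.36 and 0.53. Inactive bee 3 was thus beyond active bee 3, and the statuses overlapped. The difference of means, active minus inactive, was 0.377, and it was 0.189 when the 3 bees that stood apart were left out of the lists and of the scale. On the higher list these values were 0.313 and 0.347. Inactive bee 3 was also the library with the smallest share of counts in its 10 most abundant genes. The part of that share in its position was not tested.

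**Figure D5:**
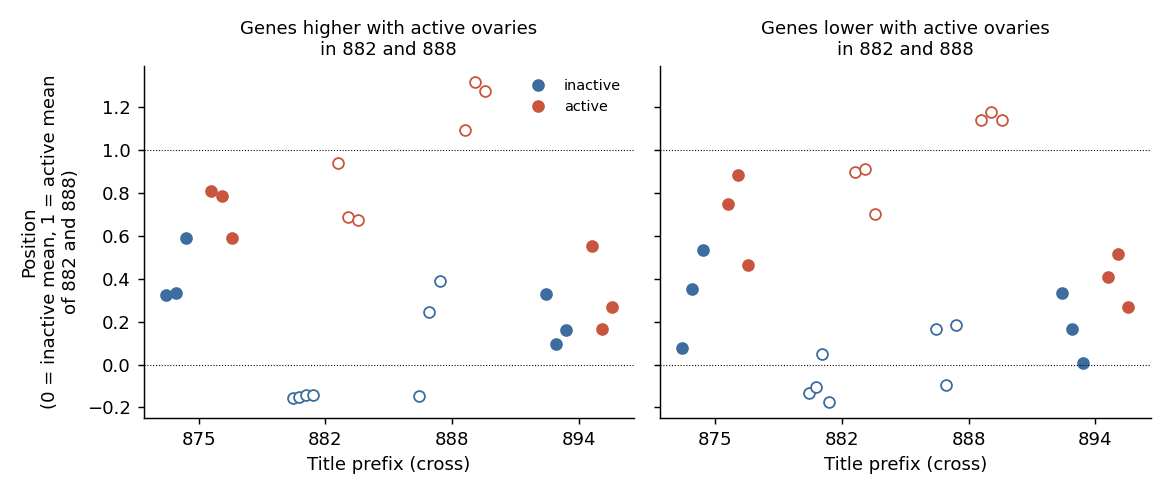
Position of each of the 25 bees between the mean of inactive bees (0) and of active bees (1) of 882 and 888, as the median over genes higher in both crosses (left) and over genes lower in both (right), by title prefix, with inactive bees in blue and active bees in red. Open points set the scale and are not independent of it; inactive bees of cross 875 lie between 0.32 and 0.59 on the left, and inactive bee 3 reaches active bee 3.

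On the main axis of expression over all 25 libraries, the statuses of cross 875 overlapped as well. This axis, a first principal component, took up 27.6% of the variance. Its sign was set so that active bees had the higher mean score over all 25 libraries. Active bees 1, 2 and 3 of cross 875 scored 48.1, 14.4 and 24.4, and inactive bees 1, 2 and 3 scored -15.7, -7.59 and 32.1. Inactive bee 3 was above active bees 2 and 3, and the difference of means was 26.0 (exact two-sided permutation test, p = 0.3, n = 3 and 3, the smallest possible p being 0.1). It was 16.4 without active bee 1, 16.7 without inactive bee 1 and 40.6 without inactive bee 3 (exact permutation p = 0.5, 0.5 and 0.1), and 14.7 on an axis made from the 500 most variable genes. The same difference was 109 in 888, 90.4 in 882 and 13.6 in 894. Inactive bee 3 was the only one of the 13 inactive bees with a score above 0.

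The third comparison tested whether the response in cross 875 differed from that of the other crosses. The change in cross 875 minus the mean change of 882, 888 and 894 was called in 0 of 13991 genes (edgeR, 0% called), with 976 (6.98%) at an unadjusted p under 0.05. DESeq2 called 3 genes more positive and 1 more negative in cross 875 (1193 at an unadjusted p under 0.05). Against single crosses edgeR called 0 genes each, with 953 at an unadjusted p under 0.05 against 882, 2442 against 888 and 150 against 894. Without the 3 bees that stood apart it called 0 genes, with 1706 at an unadjusted p under 0.05.

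The genes with the smallest p in this test are given as the nearest to a difference. GB46587, described above, had the largest, with a log2 change of 5.12 within cross 875 against 0.23 in 882, -6.29 in 888 and 0.88 in 894, a difference of 6.86 (SE 1.54, edgeR adjusted p = 0.683). DESeq2 called it (adjusted p = 0.00171). Inactive bees of cross 875 were below those of every other cross, whose inactive bees had 2.21 to 117 CPM. GB54097 stood at 463, 81.6 and 300 CPM in active bees 1, 2 and 3 and at 67.1, 104 and 54.6 CPM in inactive bees 1, 2 and 3, so that active bees 1 and 3 stood out. Active bees of the other crosses had 37.9 to 192 CPM, and the difference in response was 2.58 (SE 0.62, edgeR adjusted p = 0.683). Between active bees alone, GB54097 was called higher in cross 875, by a log2 change of 2.15 (SE 0.39, edgeR adjusted p = 0.00888). That test shares its bees with the test that chose the gene.

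In the other direction, GB50197 had 18.5, 15.6 and 20.9 CPM in active bees 1, 2 and 3 and 17.1, 24.7 and 27.5 CPM in inactive bees 1, 2 and 3. In each other cross every active bee was above every inactive bee, with 20.4 to 41.4 CPM against 13.5 to 20.3 CPM. The difference in response was -1.04 (SE 0.26, edgeR adjusted p = 0.683). GB49353, with a position at 6628 on scaffold Group12.16, had 38.2, 40.4 and 73.1 CPM in active and 64.4, 92.8 and 162 CPM in inactive bees 1, 2 and 3. Its difference was -1.41 (SE 0.37, edgeR adjusted p = 0.683).

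Levels of cross 875 were finally set beside those of the other crosses within each status, a comparison added after the bees had been placed on the main axis. Inactive bees of cross 875 had 17 genes (0.122%) higher and 13 (0.0929%) lower than the mean of the other inactive groups (edgeR adjusted p under 0.05, 30 of 13991 genes or 0.214%). Without the 3 bees that stood apart there were 5 higher and 8 lower. Without inactive bee 2 there were 7 higher and 2 lower, without inactive bee 3 there were 13 and 0, and without inactive bee 1 there were 27 and 16. Active bees of cross 875 had 69 genes (0.493%) higher and 20 (0.143%) lower than the other active groups (89 genes, 0.636%). Leaving out active bee 2 raised these to 180 and 28, and leaving out active bee 3 gave 36 and 14. DESeq2 called 132 higher and 174 lower for inactive, and 183 and 125 for active bees.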

How the data were processed

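RNA of single worker bees was measured in 25 libraries. The authors deposited raw read counts per gene (15314 identifiers) and, in 2 further tables, raw read counts per position for parents called D and Q. The submitters' processing notes name TopHat and edgeR without versions. The build, annotation, counting tool and strand setting are unstated in the sources used here, so reads of overlapping or near-identical genes may be shared between identifiers. Groups were taken from library titles. The members and lists were chosen with earlier results of these data known.

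Each cross was fitted alone with edgeR 4.0.16 in R 4.3.3 (filterByExpr, TMM scaling, robust dispersions and robust quasi-likelihood F test, 2 group means), with Benjamini-Hochberg adjustment over all genes tested and calls at adjusted p under 0.05. Differences between crosses used 8 group means in all 25 libraries. Standard errors were taken as the size of the log2 change over the root of its F value. Distances, SDs and the principal component used log2 CPM with a prior count of 2, scaled over all 25 libraries. DESeq2 1.42.0 and limma-voom (limma 3.58.1) were alternatives. The tests of ovary status within cross 875 and of its difference from the other crosses were run on simulated counts, with 50 changed genes at each size. Within cross 875 the test recovered 1 gene at 2-fold, 11 at 4-fold, 36 at 8-fold and 48 at 16-fold, and called 8 unchanged genes. For the difference between crosses it recovered 1, 27, 43 and 49, and called 1 unchanged gene. A count of 0 calls within cross 875 therefore does not exclude changes of any of these sizes. The simulation changed 50 genes at every size together, which eases the adjusted threshold for each of them. In the real counts GB46587 and GB55450 had edgeR log2 changes of 5.12 and 3.16 and were not called.

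Apart from GB55450, named after its values were seen, named genes had an average log2 CPM of at least 4. They had the smallest unadjusted p among genes without overlap between statuses (ovary status), the smallest p (difference between crosses), the largest SD (inactive bees), the largest change in the weaker of 882 and 888 (lists) or the highest mean CPM. Parental reads served to check the cross and were not compared otherwise. Lists of pathway and cell type genes were not used, because identifiers could not be matched to names. Each bee is a separate animal, and bees of 1 cross may be sisters, so p-values describe the spread between bees of these crosses.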

Additional observations from a re-analysis of the deposited data

Results flagged for a closer look

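GB46587 separated active from inactive bees completely in cross 875 and in cross 888, in opposite directions. It was named for its small p in the test of the difference between crosses. With active ovaries it changed by 5.12 on the log2 scale within cross 875, where all 3 active bees (1.79 to 41.0 CPM) lay above all 3 inactive bees (0.185 to 0.993 CPM). In 888 all active bees (0.206 to 2.43 CPM) lay below all inactive bees (3.81 to 117 CPM), a log2 change of -6.29. The difference between these crosses alone was not called by edgeR, which called 0 genes against 888. The adjusted p of GB46587 there was 0.069 (edgeR), the smallest over all genes. Inactive bees 1 and 2 of 888 are among the 3 that stood apart. Without those 3, the difference of cross 875 from the mean of the other crosses was 7.09 (edgeR adjusted p = 0.373).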

How the results depend on the processing

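Within cross 875 the counts of calls (0 higher, 0 lower) were also 0 with RLE scaling, without a low-count filter, with limma-voom, with a non-robust fit and in the fit of all libraries; DESeq2 called 4 higher, and leaving out a bee gave 0 to 6 higher and 0 lower. For the difference between crosses DESeq2 called 3 and 1, and every other setting, leaving out a bee included (0 to 0), called 0. Against inactive bees of other crosses, DESeq2 called 132 and 174 genes, the removal of the 3 bees that stood apart left 5 and 8, and leaving out a bee gave 7 to 27 higher and 0 to 16 lower. Against active bees DESeq2 called 183 and 125, and leaving out a bee gave 36 to 180 and 14 to 28. The distance within inactive minus within active bees ran from -0.278 to 0.057 when a bee was left out. The corresponding difference in median SD was -0.06, moved to -0.15 over genes with a mean log2 CPM of at least 4, and ran from -0.19 to 0.12 when a bee was left out. Leaving out a bee gave list medians of 0.28 to 0.61 (higher in 888), -0.30 to 0.0142 (lower in 888), 0.48 to 0.84 (higher in both) and -0.67 to -0.28 (lower in both); the list of genes lower in 888 made without the 3 bees gave 0.0092. That last list used a single inactive bee of 888, assumed to vary like the others. The cause of these shifts was not tested. Of 196 alternative values of single genes 187 kept sign and side of the threshold, 1 passed it (GB46587 with DESeq2, difference 6.87) and 8 changed sign. These values leave out the changes of GB46587 and GB55450 within cross 875. Both genes passed the threshold there with DESeq2, and GB46587 also without active bee 3. GB43689 became -1.73 with limma-voom. When a bee was left out, GB43689 ran from -4.64 to 0.91, GB52832 from -0.0054 to 4.54, GB46403 from -1.90 to 0.42, GB50121 from -1.51 to 0.71, GB49544 from -2.21 to -0.09 and GB40286 from 0.11 to 1.79. The difference on the first principal component ran from 16.4 to 40.6. No paired analysis was possible because bee numbers follow the deposited order and pair no bees. With 3 against 3 bees no exact permutation test can go below p = 0.1.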
